A study of Mus musculus with 2 samples.

Results

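Lyl1, Lmo2, Tal1, Hhex and Mef2c are transcription regulators of the blood progenitor, and the 5 genes were chosen by symbol from the 22032 genes of a single-cell RNA sequencing table of the embryonic mouse thymus. The cells were double-negative 1 (DN1) cells, the sort gate that holds the most immature thymocytes, taken from 5x polychromILC mice, a strain that carries reporters for genes of innate lymphoid cell (ILC) and T cell development. Embryonic thymus was sampled at 2 ages, as E15.5_DN1 and as E19.5_DN1, and each gave 1 library of the 10x 3' kind. Cell barcodes carried suffix 2 (3875 barcodes) or suffix 1 (2182 barcodes), and no label ties a suffix to an embryonic day, so the days were not compared and there was no replicate. All groups share the strain, the tissue and the DN1 sort. Groups of barcodes were instead defined by 2 or more unique molecular identifiers (UMIs, each standing for 1 captured RNA molecule) of both genes of a pair, with barcodes that passed several pairs set apart. These gates were DN2/DN3 (Cd3g, Myb; 318 barcodes), ILC2 (Icos, Rora; 989), NK/ILC1 (Xcl1, Nkg7; 1379), mast (Ms4a2, Fcer1a; 2) and progenitor (Spi1, Bcl11a; 787). Whether a barcode stands for a cell or a nucleus is not settled, since the extraction label describes a lysis to nuclei.

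Lmo2 is a LIM-domain adaptor that does not bind DNA itself. It joins a basic helix-loop-helix (bHLH) factor, Tal1 or its paralog Lyl1, paired with an E protein, to Ldb1 and a GATA factor, and such complexes keep genes of stem and progenitor cells active. Hhex is a homeobox factor that is needed for early lymphoid development, and Mef2c is a MADS-box factor that favours lymphoid over myeloid output of early progenitors and can be held in check by class IIa histone deacetylases. In the thymus these genes are switched off as Notch signalling drives progenitors to T lineage commitment, and several of them are oncogenes of T cell leukaemia when they stay on.

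On GRCm38, in the GENCODE vM21 annotation, all 5 are protein-coding genes on the plus strand. Lyl1 lies at chr8:84701457-84704715 and Lmo2 at chr2:103957986-103981878. Tal1 lies at chr4:115056426-115071755, Hhex at chr19:37434810-37440731 and Mef2c at chr13:83504034-83667080. The whole of Lyl1 lies inside Nfix on the opposite strand, and 14936 bases of Lmo2 overlap 4931422A03Rik on the opposite strand. Whether the counting used strand is not given in the sources used here, so the Lyl1 and Lmo2 counts are uncertain to that extent. Nfix itself had 22.9 CPM (UMIs of the gene as a share of all UMIs of the gate, on the usual CPM scale) in the DN2/DN3 gate, 7.58 in the ILC2 gate, 1.61 in the NK/ILC1 gate and 46.4 in the progenitor gate. 4931422A03Rik had 1 UMI over all gates.

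The promoters of Lyl1 and Hhex are shown because these were the members kept longest on the T path and in the NK/ILC1 gate. Each sequence runs from 250 bases before to 50 bases after the RefSeq start (GRCm38.p6, plus strand), with capitals on the ETS-type letters CCGGAA or AGGAAG on either strand. The windows are chr8:84701207-84701506 for Lyl1 and chr19:37434591-37434890 for Hhex.
Lyl1: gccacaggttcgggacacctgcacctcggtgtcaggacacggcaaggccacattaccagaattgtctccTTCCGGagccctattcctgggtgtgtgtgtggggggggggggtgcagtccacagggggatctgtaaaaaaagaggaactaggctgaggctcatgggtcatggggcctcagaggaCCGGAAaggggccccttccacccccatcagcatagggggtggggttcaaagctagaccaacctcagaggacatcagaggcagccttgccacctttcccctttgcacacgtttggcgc
Hhex: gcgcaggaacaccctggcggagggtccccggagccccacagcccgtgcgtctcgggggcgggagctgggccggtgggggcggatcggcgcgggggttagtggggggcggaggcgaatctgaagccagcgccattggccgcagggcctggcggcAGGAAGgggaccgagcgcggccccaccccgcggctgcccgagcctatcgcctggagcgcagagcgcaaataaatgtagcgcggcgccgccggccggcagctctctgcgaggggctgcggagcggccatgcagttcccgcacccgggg
Searched on both strands, CCGGAA was found in 14.9% of 32851 promoters of this length and AGGAAG in 35.4%. AGGAAG also matched in 2 of the 3 Mef2c windows. The Lyl1 window held 2 matches to CCGGAA, at base 70 on the minus strand and base 184 on the plus strand, and the Hhex window held 1 match to AGGAAG, at base 154. Lmo2 had no window in the promoter set used here, so it was not searched for any of these letters. The GATA letters AGATAA, found in 11.2% of promoters, matched in 1 of the 2 Tal1 windows and in no Lyl1, Hhex or Mef2c window. The E-box letters CAGATG (17.2%) matched in 1 of the 2 Tal1 windows and 1 of the 3 Mef2c windows. The shares are per window, so a member with several windows has more chances of a match. CAGCTG (16.3%) and the MEF2 letters TAAAAATA (2.72%) matched in none of the Lyl1, Tal1, Hhex and Mef2c windows. A match is a description of letters and not evidence of binding.

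After filters 5412 barcodes with 98990160 UMIs remained, 3275 of suffix 2 and 2137 of suffix 1, with a median of 13688 and 14841 UMIs. Of these, 3475 passed 1 gate, 234 passed several and 1703 passed none. Median UMIs differed between gates, with 27447.5 in DN2/DN3, 13388 in ILC2, 11314 in NK/ILC1 and 32330 in progenitor barcodes. Among the gates other than mast, the marker list of each gate summed highest in that gate, but single markers were not all particular to it. The DN2/DN3 gate had 234.8 CPM of Bcl11b and the ILC2 gate 184 CPM of Gata3. The NK/ILC1 gate had 147 CPM of Ncr1 and the progenitor gate 154 CPM of Cd34. Bcl11b also had 161 CPM in the ILC2 gate. Kit had 83.4 CPM in progenitor and 81.3 CPM in ILC2 barcodes. Hpgds, an ILC2 marker, had 6.50 CPM in ILC2 and 6.65 CPM in progenitor barcodes. Cd3g had 1322 CPM in DN2/DN3 and 1449 CPM in NK/ILC1 barcodes. In the mast gate 4 of 8 mast markers had no UMI. The DN2/DN3 gate also held 2024 CPM of Gzma, 40.9 of Sox13 and 48.1 of Blk, genes of cytotoxic and gamma-delta T cells. Of 8 NK/ILC1 markers 6 had a UMI in DN2/DN3 barcodes and summed to 2155 CPM, with 2 at 0, against 71.6 CPM in progenitor barcodes. Most of that sum was Gzma, followed by Ccl5 at 126 CPM. The rest of the list was low there, with Ncr1 at 0.106, Tbx21 at 0.317, Il2rb at 2.43 and Klrd1 at 2.53 CPM. Eomes and Klrb1c were the 2 at 0. Of 4 gamma-delta T markers 4 had a UMI in DN2/DN3 barcodes and summed to 141 CPM, against 18.0 CPM in progenitor barcodes. That list was not particular to the DN2/DN3 gate, since it summed to 391.9 CPM in ILC2 and 234.0 CPM in NK/ILC1 barcodes. Most of those sums was Cd163l1, at 384.9 and 231.5 CPM, against 45.8 CPM in DN2/DN3 barcodes. Sox13, Blk and Il17a were highest in the DN2/DN3 gate. Of 6 erythroid markers 4 had a UMI in DN2/DN3 and 4 in progenitor barcodes, at 356 CPM and 587 CPM. The part of these other cell types in the results was not tested. All 3 comparisons of a gate with the progenitor gate share the progenitor barcodes. Bulk sums of a gate cannot tell fewer barcodes with the RNA from less RNA per barcode. In all, 25 barcode sequences occurred with both suffixes, and 20 gated barcodes carried one of them. Intervals below are 95% intervals that cover counting error only, and a gene is called past 2-fold when it had at least 20 UMIs in the pair of gates and its log2 ratio lay beyond 1. No p-value was computed.

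All 5 genes were at their highest in the progenitor gate among the 4 larger gates, and 3 of them stood well above the other two there. Mef2c had 153 CPM, Hhex 132 CPM and Lyl1 129.8 CPM (interval 125.5 to 134), against 20.3 CPM of Lmo2 (18.6 to 22.0) and 7.74 CPM of Tal1 (6.72 to 8.88). These are UMI levels of a 3' library, which counts 1 end per RNA. The median progenitor barcode held 4 UMIs of Lyl1, 4 of Hhex and 4 of Mef2c, and none of Lmo2 or Tal1. Lyl1 spanned 0 to 20 UMIs a barcode, Hhex 0 to 20 and Mef2c 0 to 43. Of the 2 bHLH factors, Lyl1 gave 3453 UMIs there and Tal1 gave 206.

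**Figure D1:**
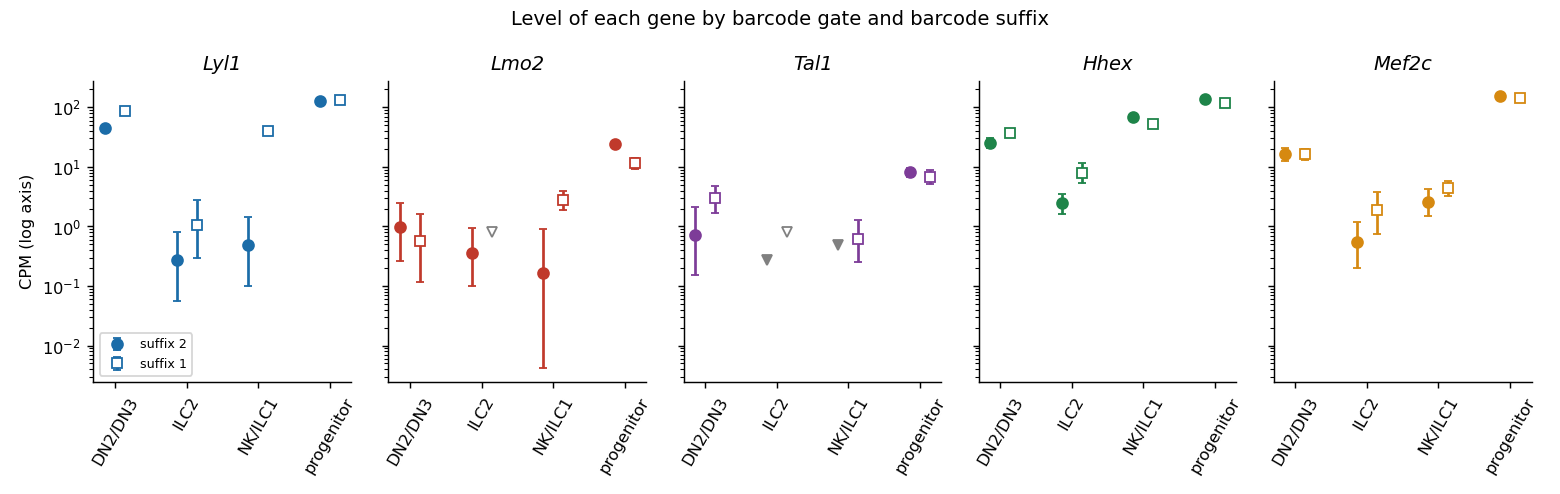
Level of each gene in CPM (log axis) in the DN2/DN3, ILC2, NK/ILC1 and progenitor gates, for suffix 2 (filled circles) and suffix 1 (open squares), with exact 95% Poisson intervals; grey triangles mark a count of 0, drawn at the level of 3 counts. Lyl1 in the NK/ILC1 gate is at 0.491 CPM in suffix 2 and 39.9 CPM in suffix 1, while Hhex stays above 50 CPM in both.

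On the T path, 4 of the 5 genes were more than 2-fold lower in the DN2/DN3 gate than in the progenitor gate, and Lyl1 was the exception. Across all genes 7.31% of 11308 were lower past 2-fold and 5.44% higher. Lmo2, the adaptor, was the most reduced, with 0.739 CPM in DN2/DN3 barcodes against 20.3 CPM in progenitor barcodes, a log2 ratio of -4.78 (-6.10 to -3.72) that left 3.65% of the progenitor level. Mef2c had 16.4 CPM against 153 CPM, a log2 ratio of -3.22 (-3.46 to -2.99). Hhex had 32.1 CPM against 132 CPM, with 24.3% left and a log2 ratio of -2.04 (-2.22 to -1.87). Tal1 had 2.01 CPM against 7.74 CPM, from only 19 UMIs in the DN2/DN3 gate, with 25.9% left and a log2 ratio of -1.95 (-2.71 to -1.27). Lyl1 had 68.3 CPM (63.1 to 73.8) in DN2/DN3 barcodes against 129.8 CPM in progenitor barcodes, a log2 ratio of -0.93 (-1.05 to -0.80) that left 52.6%. The intervals of Hhex and Tal1 overlap, so their order cannot be told apart, while those of Lyl1, Hhex, Mef2c and Lmo2 do not.

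The direction was the same within each suffix, and the sizes differed. Tal1 kept 8.97% of its progenitor level within suffix 2, from 3 UMIs in the DN2/DN3 gate, and 43.9% within suffix 1, from 16 UMIs, and the intervals of their log2 ratios overlap (-5.77 to -1.90 and -2.09 to -0.36). Within suffix 2 Lyl1 had 44.2 CPM in DN2/DN3 barcodes against 129.4 CPM in progenitor barcodes, past 2-fold at a log2 ratio of -1.55. Within suffix 1 it had 86.8 CPM against 130.8 CPM, at -0.59. Mef2c kept 10.4% of its progenitor level within suffix 2 and 11.6% within suffix 1. Hhex kept 18.3% and 31.4%, and Lmo2 4.08% and 4.87%. The DN2/DN3 barcodes of suffix 2 were also shallower, with a median of 19223 UMIs against 33723 in suffix 1.

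The order of loss was followed over 5 steps that the gate genes define. Step 1 is progenitor barcodes with no Cd3g UMI (659 barcodes), step 2 progenitor barcodes with 1 or more (128), step 3 barcodes that passed both gates and no other (96), step 4 DN2/DN3 barcodes that still held a UMI of Spi1 or Bcl11a (170), and step 5 DN2/DN3 barcodes with none (148). In the pooled counts Lmo2 went first, Mef2c next, then Hhex, and Lyl1 last, while the intervals of Tal1 overlapped those of Hhex at steps 3 and 4 and that of Mef2c at step 3. At step 2 Lmo2 was at 73.2% of its step 1 level (56.1 to 94.2) and Mef2c at 88.1% (80.7 to 96.0), while Lyl1 was at 103%, Tal1 at 104% and Hhex at 100.1%. At step 3 Lmo2 was at 14.2% (7.52 to 24.6), Mef2c at 31.7% (27.5 to 36.4), Tal1 at 48.3% (27.0 to 80.8), Hhex at 52.0% (46.0 to 58.6) and Lyl1 at 94.8% (86.2 to 104). Barcodes with both progenitor and T genes thus had nearly their full Lyl1 level when Lmo2 RNA was sparse. At step 4 Lyl1 was at 69.2%, Tal1 at 36.9% (21.7 to 59.5) and Hhex at 32.5%, while Mef2c was at 14.4% (12.1 to 16.9) and Lmo2 at 4.23%. The place of Lmo2 before Mef2c was not resolved when steps were set on 5000 thinned UMIs a barcode, where step 4 gave 33.9% (6.65 to 108) for Lmo2 and 31.1% for Mef2c. At step 5 Lyl1 was at 13.6% (10.1 to 18.1), Hhex at 4.34% and Mef2c at 1.15%, Lmo2 had 1 UMI and Tal1 had 0.

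**Figure D2:**
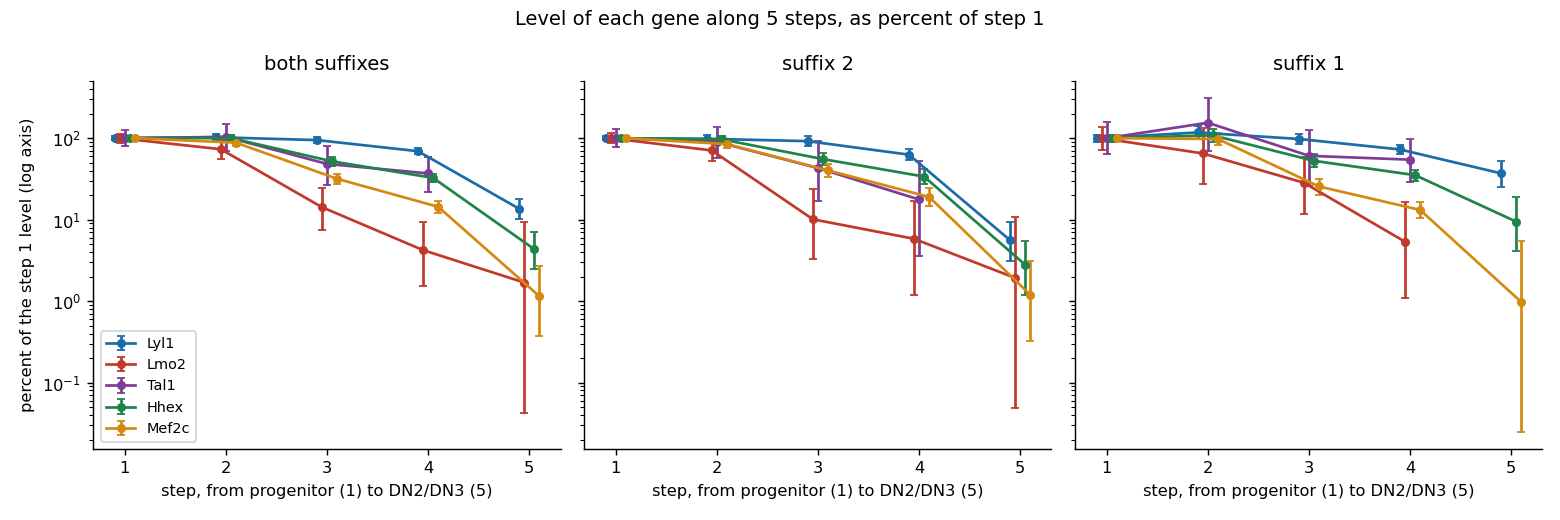
Level of each gene as percent of its own step 1 level (log axis) over the 5 steps from progenitor to DN2/DN3 barcodes, for both suffixes together, suffix 2 and suffix 1, with conditional exact 95% intervals; counts of 0 are not drawn. Lmo2 lies lowest and Lyl1 highest at steps 3 and 4 with both suffixes together.

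At steps 3 and 4 Lyl1 outlasted Hhex, Mef2c and Lmo2 within each suffix. Its interval overlapped that of Tal1 at step 3 in suffix 2 and at steps 3 and 4 in suffix 1. At step 3 Lyl1 was at 92.0% within suffix 2 and 97.8% within suffix 1, against 55.3% and 52.7% for Hhex and 40.2% and 25.5% for Mef2c. Lmo2 was at 10.1% (3.26 to 23.8) within suffix 2, below Mef2c, but at 28.4% (11.8 to 58.6) within suffix 1, where its interval spans that of Mef2c (20.2 to 31.9). By step 4 Lmo2 was at 5.82% within suffix 2 and 5.36% within suffix 1. The steps do not hold the suffixes in equal shares, with 48 barcodes of suffix 2 and 122 of suffix 1 at step 4 and 121 and 27 at step 5. Within suffix 1 Lyl1 was still at 37.0% at step 5, against 5.59% (3.12 to 9.25) within suffix 2. The latter interval overlapped those of Hhex (1.20 to 5.51) and Lmo2 (0.0486 to 10.8), so the end of the order was not resolved within suffix 2. Median UMIs were 44176 at step 3 and 16348 at step 5 against 32170 at step 1. Barcodes of 2 cells would also pass both gates and hold more UMIs, and their part in step 3 was not tested.

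Bcl11b, the factor whose onset marks T commitment, gave a second view of the same gate. DN2/DN3 barcodes with 2 or more Bcl11b UMIs (263) had 26.5 CPM of Hhex and 10.8 CPM of Mef2c, against 62.0 and 46.5 CPM in the 55 with 0 or 1. The intervals of Lyl1 overlapped, at 66.6 CPM (61.1 to 72.5) against 77.5 CPM (64.0 to 93.0). Within suffix 2 Lyl1 was lower with 2 or more, at 40.4 CPM (34.0 to 47.6) against 65.8 CPM (47.2 to 89.3). Those intervals overlapped only at their ends. Within suffix 1 Lyl1 had 87.0 against 85.9 CPM. Overlap of intervals does not show equal levels, and an interval of the ratio was not taken. Lmo2 rested on 3 UMIs against 4. Depth differed, with a median of 28294 UMIs against 22710.

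Within the progenitor gate the 5 genes also split, by genes the gate did not use. Barcodes with 2 or more UMIs of Tcf7 (591), an early target of Notch signalling, had 14.6 CPM of Lmo2 (13.0 to 16.3), against 43.0 CPM (36.5 to 50.2) in the 106 with none, a log2 ratio of -1.56 (-1.84 to -1.27). Lmo2 was the only member past 2-fold, where 1.82% of 10834 genes were lower past 2-fold. Mef2c followed in the same direction with 133 CPM against 212 CPM, a log2 ratio of -0.67 (-0.79 to -0.56). Hhex had 127 against 152 CPM, Tal1 had 7.54 against 8.49 CPM, and Lyl1 ran the other way with 134 against 112.5 CPM (log2 ratio 0.25, 0.10 to 0.41). Depth was alike, with a median of 32661 against 32522.5 UMIs. The Lmo2 log2 ratio was -1.65 within suffix 2 and -1.07 within suffix 1, and that of Mef2c was -0.65 and -0.74.

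Flt3, a cytokine receptor of multipotent and lymphoid progenitors, gave the mirror image. The 96 progenitor barcodes with 2 or more Flt3 UMIs had 46.4 CPM of Lmo2 and 230.3 CPM of Mef2c, against 13.8 and 129.6 CPM in the 578 with none. The log2 ratios were 1.76 (1.47 to 2.04) for Lmo2 and 0.83 (0.72 to 0.94) for Mef2c. Lyl1 had 119.5 against 134 CPM, Hhex 145 against 128 CPM and Tal1 8.27 against 7.59 CPM, and their log2 ratios lay between -0.16 and 0.18. Barcodes with Flt3 were somewhat deeper, with a median of 37183 against 31548 UMIs. The stem cell factor receptor Kit gave smaller log2 ratios, from -0.39 (Lmo2) to 0.27 (Mef2c). Mpo, a myeloid granule enzyme, gave log2 ratios of -0.23 (Tal1) to 0.30 (Mef2c), and that of Mef2c changed sign between suffix 2 (0.76) and suffix 1 (-0.33). All 4 splitting genes were chosen after values of these data had been seen.

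**Figure D3:**
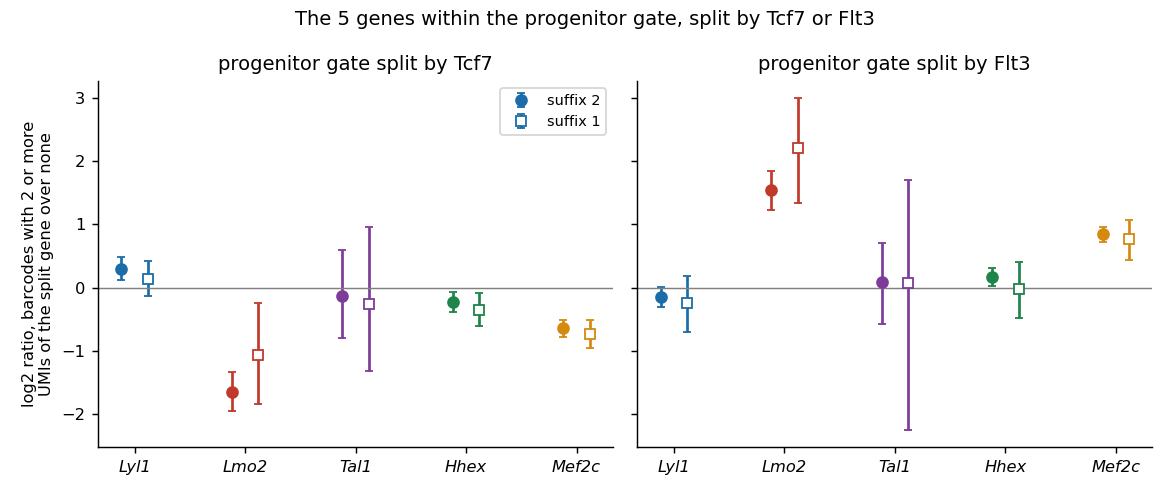
Log2 ratio of each gene between progenitor-gate barcodes with 2 or more UMIs of Tcf7 (left) or Flt3 (right) and those with none, for suffix 2 (filled circles) and suffix 1 (open squares), with 95% intervals. Lmo2 and Mef2c lie below 0 for Tcf7 and above 0 for Flt3 in both suffixes.

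The suffixes differed in the progenitor gate for Lmo2 alone among the members past 2-fold. Progenitor barcodes of suffix 2 had 23.8 CPM of Lmo2 against 11.5 CPM in suffix 1, a log2 ratio of 1.05 (0.72 to 1.39), where 3.68% of 10938 genes were higher past 2-fold and 1.23% lower. The level of Lyl1 was 129.4 CPM in suffix 2 and 130.8 CPM in suffix 1 (log2 ratio -0.02, -0.12 to 0.09). Hhex, Mef2c and Tal1 had log2 ratios of 0.21, 0.14 and 0.26. Barcodes with 2 or more Flt3 UMIs numbered 87 of suffix 2 and 9 of suffix 1, and their part in the difference was not tested. Among barcodes with no Flt3 UMI, Lmo2 had 16.1 CPM in suffix 2 against 9.06 CPM in suffix 1, and among those with 2 or more Tcf7 UMIs it had 16.9 against 8.87 CPM. In the DN2/DN3 gate none of the 3 members with 20 UMIs was past 2-fold, where 2.4% of genes were lower and 7.01% higher. Lyl1 came nearest, with 44.2 CPM in suffix 2 against 86.8 CPM in suffix 1 (log2 ratio -0.97, -1.23 to -0.72).

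In ILC2 barcodes, the type 2 innate lymphoid cells that produce interleukin 5 and interleukin 13, all 5 genes were rare. They were all lower past 2-fold than in the progenitor gate, where 16.8% of 11606 genes were lower and 13.6% higher. Lyl1 had 7 UMIs in 989 barcodes, 0.474 CPM (0.190 to 0.976), against 129.8 CPM in progenitor barcodes, a log2 ratio of -8.10. Mef2c had 0.880 CPM against 153 CPM and Lmo2 0.271 CPM against 20.3 CPM. Tal1 had 0 UMIs against 7.74 CPM, which at 3 counts is at least 38.1-fold lower. Hhex was the highest of the 5, with 3.86 CPM (2.92 to 5.00) against 132 CPM, a log2 ratio of -5.10. Within suffix 2 Hhex had 2.45 CPM and within suffix 1 7.995 CPM, a log2 ratio of -1.71 (-2.51 to -0.91) where 4.17% of genes were lower past 2-fold and 7.4% higher. Suffix 1 ILC2 barcodes with 2 or more epithelial UMIs, 6 of them, had 50.1 CPM of Hhex from 8 UMIs, against 6.03 CPM in the 166 with none. Of the NK/ILC1 markers, those 6 also had more Ncr1 (56.4 against 10.5 CPM) and Klrd1 (363 against 107 CPM) but less Gzma (37.6 against 324 CPM). The part of other cell types in this Hhex level was not tested.

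NK/ILC1 barcodes, natural killer cells and type 1 innate lymphoid cells, kept more of Hhex than of any other member. All 5 genes were lower past 2-fold than in progenitor barcodes, where 18.6% of 11595 genes were lower and 11.3% higher. Hhex had 58.3 CPM (54.8 to 62.0) against 132 CPM, a log2 ratio of -1.18 (-1.29 to -1.08) that left 44.0%, and a UMI of Hhex was found in 657 of the 1379 barcodes. Mef2c had 3.798 CPM against 153 CPM (2.48% left) and Lmo2 1.84 CPM against 20.3 CPM (9.09% left). Tal1 had 0.403 CPM against 7.74 CPM. Lyl1 stood at 26.1 CPM against 129.8 CPM, with 20.1% left. The gates therefore order the members differently, with Lyl1 above Hhex in the DN2/DN3 gate and Hhex above Lyl1 in the NK/ILC1 and ILC2 gates.

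Hhex held in both suffixes while Lyl1 did not. Within suffix 2 Hhex had 69.6 CPM in NK/ILC1 barcodes against 137.7 CPM in progenitor barcodes (log2 ratio -0.99, just inside 2-fold), and within suffix 1 it had 52.2 against 119.0 CPM (-1.19). Lyl1 had 3 UMIs, 0.491 CPM, in the 495 NK/ILC1 barcodes of suffix 2 against 450 UMIs, 39.9 CPM, in the 884 of suffix 1, a log2 ratio of -6.35 (-8.63 to -4.79). Lmo2 had 1 UMI against 31, and 7.17% of 10322 genes were lower past 2-fold between the suffixes and 14.7% higher.

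The Lyl1 RNA of suffix 1 moved with UMIs of Krt8, Krt18 and Prss16, which are genes of thymic epithelium. NK/ILC1 barcodes of suffix 1 with 2 or more such UMIs (152) had 78.4 CPM of Lyl1, those with 1 (174) had 55.3 CPM, those with none (558) had 23.6 CPM, and those with none but a UMI of Ncr1 (338), the NKp46 receptor gene, had 16.6 CPM. Spi1, the progenitor and myeloid factor PU.1, ran alongside at 102, 65.5, 26.7 and 21.0 CPM. Hhex ran the other way at 36.4, 42.3, 59.996 and 62.1 CPM, as did Ncr1 itself at 46.8, 75.8 and 157 CPM over the first 3 classes. In suffix 2 the 332 barcodes with Ncr1 and no epithelial UMI had 0.719 CPM of Lyl1 and 70.9 CPM of Hhex. Other markers of the epithelial list did not all run this way between the suffixes. Its 6 genes summed to 44.4 CPM in suffix 2, with Psmb11 at 0, and to 67.2 CPM in suffix 1, and Epcam was at 39.9 CPM in suffix 2 against 12.2 CPM in suffix 1. NK/ILC1 barcodes of suffix 1 also held more of other cell types. The 6 erythroid markers summed to 13.6 CPM in suffix 2 against 297 CPM in suffix 1, 1 of them at 0 in each. The 8 mast markers summed to 18.2 CPM, with 3 at 0, against 171 CPM, with none at 0. The 6 progenitor markers summed to 26.7 CPM, with 1 at 0, against 57.9 CPM, with none at 0, and Mpo was at 0.327 CPM against 20.2 CPM. The level of Lyl1 in NK/ILC1 cells of suffix 1 is uncertain to that extent, and the part of these cell types in it was not tested.

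**Figure D4:**
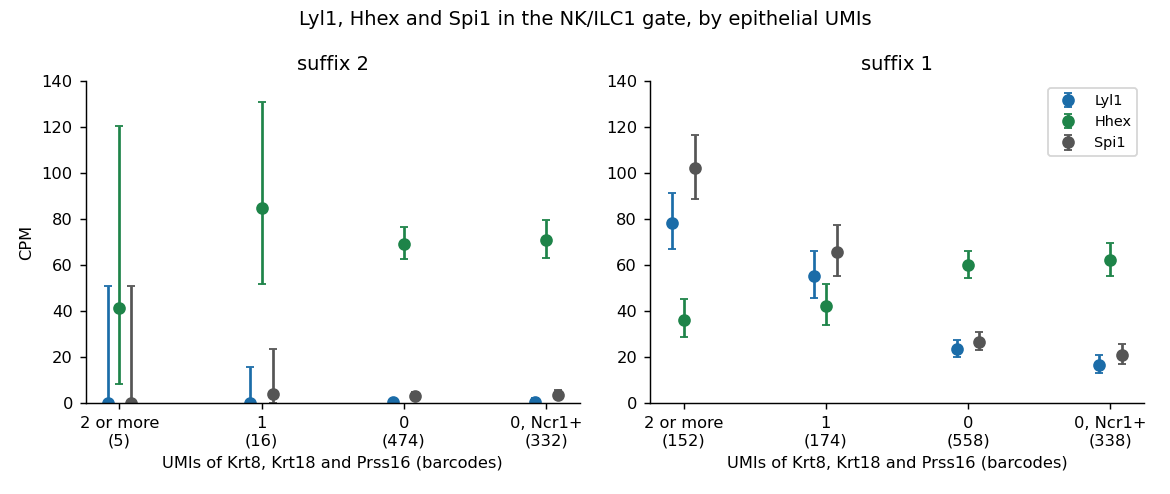
CPM of Lyl1, Hhex and Spi1 in NK/ILC1-gate barcodes of suffix 2 (left) and suffix 1 (right), by their UMIs of Krt8, Krt18 and Prss16, with the number of barcodes under each class and exact 95% Poisson intervals. In suffix 1 Lyl1 and Spi1 run down and Hhex runs up from left to right; in suffix 2 Lyl1 is near 0 throughout.

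The mast gate held 2 barcodes with 14522 UMIs, too few for a fold where a count was 0. Hhex had 7 UMIs and Tal1 had 1, and Lyl1, Lmo2 and Mef2c had 0, where a count of 0 allows up to 206.6 CPM. Its Tal1 log2 ratio over the progenitor gate had an interval of -2.16 to 5.65.

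At equal depth, detection per barcode also fell from progenitor to DN2/DN3 barcodes for Lyl1, Lmo2, Hhex and Mef2c, beyond their intervals. The fall of Tal1 and part of the order were not resolved. Each barcode was thinned to 5000 UMIs, which left out 14 DN2/DN3, 11 ILC2, 20 NK/ILC1 and 1 progenitor barcodes. Lyl1 was then found in 22.4% of DN2/DN3 (17.8 to 27.5), 0.204% of ILC2, 11.8% of NK/ILC1 and 48.9% of progenitor barcodes (45.3 to 52.4). Hhex was found in 15.46%, 1.33%, 24.2% and 50.4% of the same gates, and Mef2c in 4.61%, 0.409%, 2.06% and 48.7%. Lmo2 was found in 1 of 304 DN2/DN3 barcodes (0.329%), 0.102% of ILC2, 1.25% of NK/ILC1 and 8.40% of progenitor barcodes. Tal1 was found in 0.987%, 0 of 978 (which allows up to 0.307%), 0.147% and 3.69%. Its intervals in DN2/DN3 (0.204 to 2.86) and progenitor barcodes (2.48 to 5.26) overlapped. The ILC2 shares, at 1.33% or less, serve as the level in another cell type of the same libraries. The Tal1 share of NK/ILC1 barcodes lay under the ILC2 limit, and the interval of the Lmo2 share in DN2/DN3 (0.00833 to 1.82) overlapped that in ILC2 (0.00259 to 0.568), so neither is read as expression. The Tal1 share of DN2/DN3 barcodes rested on 3 barcodes, and its interval (0.204 to 2.86) also reached below the ILC2 limit, so it is not read as expression at this depth either. After thinning to 3000 UMIs, Hhex was found in 5.14% of DN2/DN3 barcodes (2.97 to 8.22) and Mef2c in 5.79% (3.47 to 8.99). Their order was not resolved at that depth. Without thinning Lyl1 was found in 50.6% of DN2/DN3 barcodes, 0.708% of ILC2, 20.5% of NK/ILC1 and 95.9% of progenitor barcodes.

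**Figure D5:**
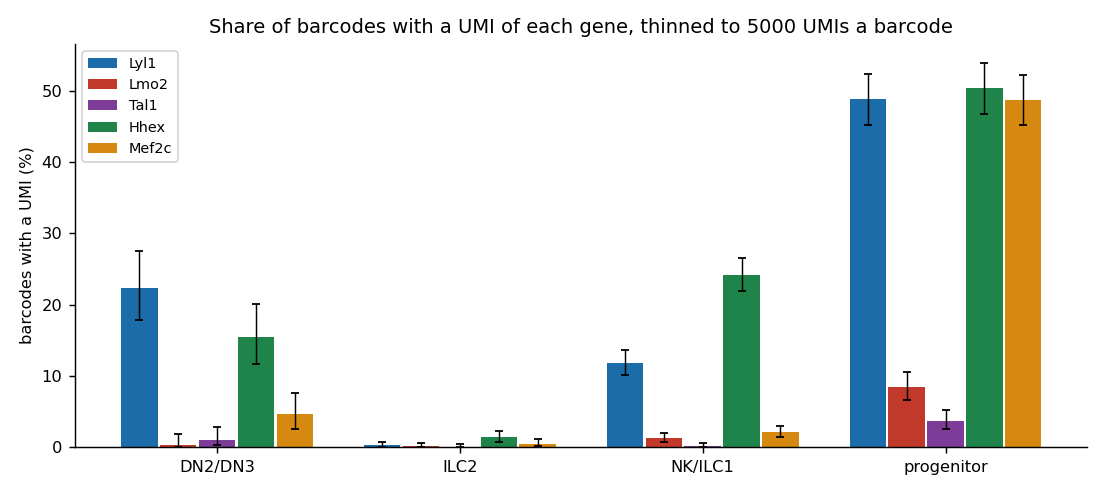
Share of barcodes with at least 1 UMI of each gene in the DN2/DN3, ILC2, NK/ILC1 and progenitor gates after thinning to 5000 UMIs a barcode, with Clopper-Pearson 95% intervals. Lyl1, Hhex and Mef2c each reach about the same share in the progenitor gate, between 48.7 and 50.4%, and only Lyl1 and Hhex exceed 10% elsewhere.

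Hhex and Mef2c were found more often in DN2/DN3 barcodes with Lyl1 than in those without. After thinning, 207 of 304 DN2/DN3 barcodes had none of the 5 genes (68.1%), against 12.8% of progenitor barcodes, where 36.3% had 2. Hhex was found in 29.4% of the 68 DN2/DN3 barcodes with Lyl1 and in 11.4% of the 236 without, and Mef2c in 11.8% and 2.54%. Lmo2 was found in 0 and 1 of them. Within suffix 2 Hhex was found in 9 of 21 barcodes with Lyl1 and 10 of 135 without, and within suffix 1 in 11 of 47 and 17 of 101. Mef2c was found in 3 of 21 and 3 of 135 within suffix 2, and in 5 of 47 and 3 of 101 within suffix 1. Progenitor barcodes showed no such split, with Hhex in 49.7% of those with Lyl1 and 51.0% of those without. In the NK/ILC1 gate 160 of the 161 barcodes with Lyl1 were of suffix 1, so only that suffix is compared. There Hhex was less frequent with Lyl1, at 26 of 160 barcodes against 176 of 714 without (24.6%). Mef2c was found in 3.75% and 2.66% of them and Lmo2 in 2.50% and 1.68%. These are shares of barcodes of 1 table and carry no test.

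A list of partners of the LMO2 complex also held Lmo1 and Lmo4, which are paralogs of Lmo2. Of its 15 measured genes 4 were higher and 1 lower past 2-fold in the DN2/DN3 gate. Of all genes 5.44% were higher and 7.31% lower there. The median log2 ratio was 0.12 on the list against 0.01 over all genes tested. Runx1, a core blood factor, had 196 CPM in DN2/DN3 and 196 CPM in progenitor barcodes. The single-stranded DNA-binding cofactors Ssbp3 and Ssbp4, which steady Ldb1, had 186 against 141 CPM and 116 against 98.9 CPM, both within 2-fold. Among the LIM-only paralogs of Lmo2, Lmo1 fell with it, to 5.70 CPM against 23.3 CPM, and Lmo4 was higher, at 105 CPM against 37.9 CPM. The E protein gene Tcf12 (113 against 47.3 CPM), Gata3 (69.6 against 26.9 CPM) and Gata1 (3.38 against 0.789 CPM) were the other list genes higher past 2-fold. In ILC2 barcodes 3 of the 15 list genes were higher and 7 lower, where 13.6% of all genes were higher and 16.8% lower. Their median log2 ratio was -0.52 against -0.11 over all genes, and Lmo4 reached 625 CPM against 37.9 CPM in progenitors. The E protein genes Tcf3 and Tcf4 were lower there, at 36.8 against 92.5 CPM and 10.2 against 57.9 CPM, as were Ssbp2, Cbfa2t3, Gata2, Runx1 and Lmo1. In NK/ILC1 barcodes 4 of 15 were lower and 0 higher, where 18.6% of all genes were lower and 11.3% higher. Runx1 was among the 4, at 27.3 against 196 CPM, and the median was -0.82 against -0.25.

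Id proteins, which bind E proteins and keep them from pairing with factors such as Lyl1 and Tal1, differed by gate. Id3 had 57.4 CPM in DN2/DN3 barcodes against 0.9398 CPM in progenitor barcodes, the 1 of 3 measured genes of the list past 2-fold there. Over all genes 5.44% were higher and 7.31% lower in that gate. Id2 had 25.6 against 14.4 CPM. In ILC2 barcodes Id2 had 372 CPM and Id3 40.1 CPM, and in NK/ILC1 barcodes Id2 had 540 CPM and Id3 17.9 CPM, all higher past 2-fold. Id1 was lower in both, at 0.745 and 3.63 CPM against 15.6 CPM in progenitor barcodes. Of all genes 13.6% were higher and 16.8% lower in ILC2 barcodes, and 11.3% and 18.6% in NK/ILC1 barcodes.

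Other stem and progenitor factors mostly went down with the members. Of 15 measured, 10 were lower and 0 higher past 2-fold in the DN2/DN3 gate, with a median log2 ratio of -1.25. Over all genes 7.31% were lower and 5.44% higher there. The homeobox gene Hoxa9 had 1.69 CPM in DN2/DN3 against 26.0 CPM in progenitor barcodes, and Mycn, a growth-promoting MYC paralog, had 17.4 against 86.3 CPM. Nfe2 had 22.3 against 61.2 CPM, while the ETS factors Fli1 (56.4 against 45.7 CPM) and Etv6 (41.8 against 67.6 CPM) stayed within 2-fold. In ILC2 barcodes 11 of 15 were lower and 1 higher, with a median of -2.48. In NK/ILC1 barcodes 11 were lower and 0 higher, with a median of -3.02. The shares over all genes were 16.8% lower and 13.6% higher in ILC2 barcodes, and 18.6% and 11.3% in NK/ILC1 barcodes. Receptors of progenitors followed, with 6 of 10 lower and 1 higher in the DN2/DN3 gate (median -1.56), among them Cd34 at 27.5 against 154 CPM. Il7r, the interleukin 7 receptor, was the one higher, at 77.2 against 24.9 CPM. In ILC2 barcodes 7 of 10 were lower and 2 higher (median -5.00), and in NK/ILC1 barcodes 8 were lower and 2 higher (median -2.88), the 2 being Cd7 and Il7r in both.

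Of 5 measured MEF2 and class IIa deacetylase genes 0 were lower past 2-fold in the DN2/DN3 gate and 2 were higher, where 7.31% of all genes were lower and 5.44% higher. The 2 were Hdac7 with 53.4 against 22.9 CPM and Hdac4 with 27.8 against 9.77 CPM. The Mef2c paralogs Mef2a (25.6 against 19.96 CPM) and Mef2d (24.5 against 21.9 CPM) stayed within 2-fold. In ILC2 barcodes 0 of the 5 were past 2-fold in either direction, and in NK/ILC1 barcodes Hdac7 alone was lower. T commitment genes went the opposite way to the members, with 14 of 15 higher past 2-fold in the DN2/DN3 gate (median 3.50). Of 14 measured in the others, 7 were higher and 5 lower in ILC2 barcodes (median 0.74) and 5 higher and 3 lower in NK/ILC1 barcodes (median 0.19). The shares over all genes were 13.6% higher and 16.8% lower in ILC2 barcodes, and 11.3% and 18.6% in NK/ILC1 barcodes.

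Likeness of pattern was measured as Pearson's r of log2(CPM + 1) over the 8 sums of the 4 larger gates and 2 suffixes, among about 3422 genes of at least 50 CPM in some gate. The sums share libraries and depth, so r is a description. Lyl1 was most like Adgrg1 (r = 0.995), an adhesion receptor with 167 CPM in DN2/DN3, 1.90 in ILC2, 44.2 in NK/ILC1 and 296 in progenitor barcodes, followed by Chchd7, Mdfi and Nop10. Lmo2 was most like Mpo (r = 0.948) and Prtn3 (0.934), both neutrophil granule proteins, then Fam98c and Rxrb. Hhex was most like Tspan4 (0.982), Esd, Klhdc2 and Napsa. Nfu1 and Ogfrl1 were among the 4 nearest genes of both Tal1 and Mef2c, and these 2 members had r = 0.961 with each other. The nearest for Tal1 also held Pnp and Abhd14a, and those for Mef2c Slc25a39 and H2afy.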

How the data were processed

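The deposited table holds raw UMI counts per gene and barcode, made by the authors. The submitters' processing notes list Cell Ranger (version 3.0.2), STAR and the build GRCm38. The labels' protocols describe FACS-purified cells and 10x 3' v3 libraries. How barcodes were called as cells, and whether counting used strand, is not given in the sources used here. No column is tied to a library by a label, so the table was treated as 1 pooled sample, and the plan for 1 sample without a test was followed.

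Barcodes with under 500 genes or over 10% mitochondrial UMIs (542) and Scrublet doublets called within each suffix (103: 93 of suffix 2 and 10 of suffix 1) were removed, leaving 713 to 113167 UMIs a barcode. Doublets may remain. UMIs were summed per gate and divided by the gate's total, as CPM with exact Poisson intervals. Ratios have conditional exact intervals, and shares have Clopper-Pearson intervals. A count of 0 was set at 3 counts, per gate, for a fold. Shares were taken after thinning to 5000 UMIs with seed 1. The functions were tested on simulated data. Python 3.11.15, numpy 2.4.6, scipy 1.17.1, pandas 2.3.3 and scanpy 1.11.5 were used.

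Members, gates, gene lists and splits were chosen with earlier results of these data known. Named genes are the members, the gate genes, the 4 nearest genes of each member, and list genes that are the 4 most abundant of their list or past 2-fold. Markers, Nfix, 4931422A03Rik, Tcf7, Flt3, Kit, Mpo, Spi1 and the genes given with the flagged barcodes are named beyond that rule. Genes of the T cell receptor chains, and 1 reporter locus, are not reported here. Sequences are from RefSeq.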

Additional observations from a re-analysis of the deposited data

Results flagged for a closer look

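Barcodes that the filters removed (542 with 1040923 UMIs, 507 of suffix 2 and 35 of suffix 1) still held the members, at levels above the 2.88 CPM that a count of 0 allows there. They had 33.6 CPM of Lyl1, 5.76 CPM of Lmo2 (6 UMIs, 2.12 to 12.5, an interval that reaches below that limit), 41.3 CPM of Hhex and 119 CPM of Mef2c. The 124 Mef2c UMIs lay in 41 barcodes, all of suffix 2, and Tal1 had 1 UMI. Hbb-bs, a red cell globin gene, gave 40622 UMIs in 33 of these barcodes, all of suffix 2, and the part of red cell content in the values was not tested.

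A second set outside the comparisons is the 26 barcodes with 2 or more UMIs of Ms4a2 and Cpa3, 16 of suffix 2 and 10 of suffix 1, with a median of 7367.5 UMIs. Tal1, which the mast cell and erythroid lineages also use, had 43.2 CPM (23.0 to 73.8) there against 7.74 CPM in the progenitor gate. Lyl1 had 53.1 CPM (30.4 to 86.3) and Hhex 99.6 CPM (67.2 to 142), against 129.8 and 132 CPM. Lmo2 had 1 UMI and Mef2c had 0, where a count of 0 allows up to 9.96 CPM. Gata2 had 578 CPM, Hdc 1139 CPM, Cma1 4210 CPM and Mcpt8 1478 CPM. This gate was chosen after the data were seen.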

How the results depend on the processing

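No paired analysis was possible because each stage has 1 library and no label ties a barcode to it. The DN2/DN3, ILC2 and NK/ILC1 gates over the progenitor gate gave 15 ratios of the members. Their 210 values under alternative settings were all below 0, and 165 counted as the same as the value reported. That meant within its interval, except for Tal1 in ILC2, which had 0 UMIs and no interval. There 11 values counted as the same because they lay within 1 log2 unit. Lyl1 in DN2/DN3 went past 2-fold with 1 UMI of each gate gene (-1.21), with the mean of barcode CPM (-1.26) and within suffix 2 (-1.55), and ran up to -0.59. Hhex in NK/ILC1 came inside 2-fold within suffix 2 (-0.99) and in barcodes with Ncr1 and no epithelial UMI (-0.996), a setting chosen after seeing the data. Lyl1 in NK/ILC1 ran from -8.04 within suffix 2 to -1.71 within suffix 1. The number of member ratios past 2-fold between suffixes was 4 as reported and 7 with 1 UMI of each gate gene. As reported, the shares over all genes ran from 1.23% (lower, progenitor gate) to 14.7% (higher, NK/ILC1 gate). No share over all genes was taken for the 1 UMI setting or for the mast gate. In the mast gate 0 members were lower past 2-fold as reported. There were 2 with 1 UMI of each gate gene, 1 with barcodes of several gates kept, 2 with gates on thinned UMIs and 3 with Ms4a2 and Cpa3, where the Hhex log2 ratio of 1.86 reversed to -0.41. The cause was not tested. With steps from thinned UMIs, steps 2 and 3 held 8 and 12 barcodes, and at step 4 Lmo2 was at 33.9% (6.65 to 108) and Mef2c at 31.1%, so the place of Lmo2 before Mef2c was not resolved at that depth; Lyl1 was at 77.8%. Tal1 rested on 19 UMIs and Lmo2 on 7 in the DN2/DN3 gate.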

Other observations

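The 1703 kept barcodes that passed no gate, with a median of 10910 UMIs, had 49.9 CPM of Lyl1, 7.22 of Lmo2, 5.20 of Tal1, 52.5 of Hhex and 42.2 of Mef2c. A UMI of Lyl1 was found in 335 of them and of Hhex in 430. Lmo2 had 9.31 CPM in the 1182 of suffix 2 and 2.41 CPM in the 521 of suffix 1, against 47.1 and 56.4 CPM of Lyl1.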
